A study of Arabidopsis thaliana with 18 samples.

Results

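*JMT* (AT1G19640), *OPCL1* (AT1G20510) and *ACX1* (AT4G16760) are genes of jasmonate metabolism in *Arabidopsis thaliana*, and their transcript levels were followed in wild-type (WT) and *pad2-1* plants under 3 growth conditions. They were picked by gene identifier. Each of the 3 genes was measured by 1 probe set, out of 22746 probe sets tested on the ATH1 array, on which sets of short oligonucleotide probes report the transcripts of nuclear and organellar genes. *JMT* and *OPCL1*, both on chromosome 1, took their names from the probe annotation of the array. *ACX1* (chromosome 4) is not in that annotation as it was used here, and its name came from the gene column of a supplementary table of the study.

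Jasmonic acid (JA) is a lipid-derived hormone of wounding, defence and stamen development. Its precursor is made from fatty acids of plastid membranes and moves to peroxisomes, where its side chain is shortened by beta-oxidation. OPCL1 is the ligase that joins the reduced precursor to coenzyme A, ACX1 is an acyl-CoA oxidase that carries out the first step of each round of shortening and gives off hydrogen peroxide, and JMT is the methyltransferase that turns finished JA into its volatile methyl ester. Conjugation of JA to isoleucine gives the form that the receptor binds, and other enzymes hydroxylate or otherwise remove JA from that pool.

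The samples were the aerial parts of seedlings grown for 18 days at 22 °C with 16 h of light and 8 h of dark on Murashige and Skoog medium with 1% sucrose. Both genotypes have the Col-0 background, and *pad2-1* carries a mutant allele of *GSH1*, the gene of the first enzyme of glutathione synthesis, so that all *pad2-1* values come from 1 allele. Plants grew without stress (control), with methyl viologen (MV, a herbicide that passes electrons from photosystem I to oxygen) or with limited phosphate (P-lim, 20% of the phosphate of the control medium), in 6 groups of 3 arrays. The methods give 0.05 µM MV where the sample labels give 0.05 M, and they state that each hybridization used a single biological replicate.

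Levels are log2 values that the authors obtained with RMA, so that a difference of 1 is a doubling, and levels of different probe sets are not compared. Array medians lay between 5.893 and 5.972, and arrays of the same group correlated across probe sets with r between 0.9964 and 0.9984. *RCA* (rubisco activase), the 1 leaf marker of 6 that was measured under its own name, was at 13.2 to 13.3 as group means and was called in none of the comparisons by limma (unadjusted p under 0.05 in none), whereas none of the 5 root and 6 flower markers listed was measured under its name. In whole aerial parts, fewer cells of a type and less RNA per cell cannot be told apart. Called means an adjusted p under 0.05 from limma with Benjamini-Hochberg adjustment over all probe sets, and intervals are the 95% intervals of that fit.

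The 3 genes followed different courses over the 6 groups. *JMT* was highest in WT under MV, *OPCL1* was higher in WT than in *pad2-1* under MV, and *ACX1* was higher in *pad2-1* than in WT under the control condition and P-lim and not called under MV. Across all arrays *JMT* ranged from 3.78 to 5.13, *OPCL1* from 6.77 to 7.85 and *ACX1* from 8.63 to 9.27. The spread between arrays of a group, as a pooled SD, was 0.183 for *JMT*, 0.163 for *OPCL1* and 0.0645 for *ACX1*, with a median of 0.0914 over all probe sets. *ACX1* thus had the smallest pooled SD of the 3, but its SD was 0.14 in *pad2-1* control and 0.005 in *pad2-1* MV. The fit used 1 spread for all 6 groups. The plot of the 3 genes by array shows each of these values with the group means.

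**Figure D1:**
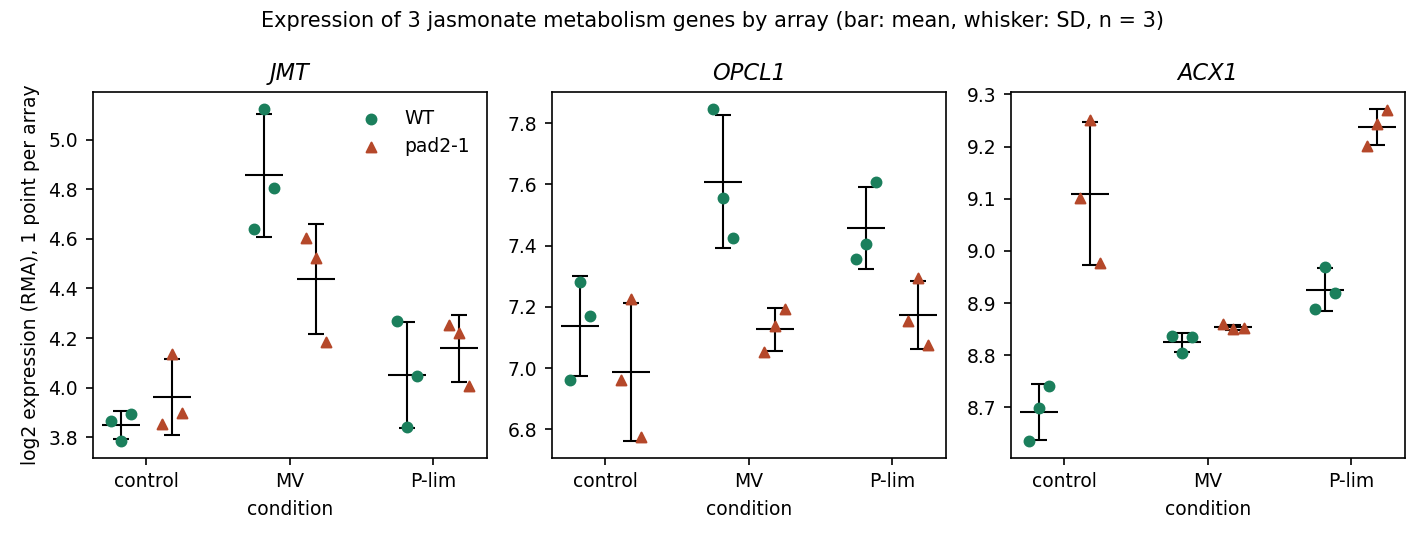
Log2 expression of *JMT*, *OPCL1* and *ACX1* on each of the 18 arrays (circles WT, triangles *pad2-1*) in the control, MV and P-lim conditions, with the mean as a bar and the SD of 3 arrays as a whisker; each panel has its own axis, which does not start at 0. The WT arrays lie above those of *pad2-1* for *OPCL1* under MV, and the *pad2-1* arrays lie above those of WT for *ACX1* in the control and P-lim conditions. The genotypes also do not overlap for *JMT* under MV, *OPCL1* under P-lim and *ACX1* under MV, where no difference was called.

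*OPCL1*, the ligase that admits the JA precursor to beta-oxidation, was lower in *pad2-1* than in WT under MV. The WT arrays under MV read 7.85, 7.55 and 7.42 (replicates 1, 2 and 3) and the *pad2-1* arrays 7.05, 7.14 and 7.19. Every WT array was above every *pad2-1* array, with a gap of 0.23. The level in *pad2-1* was 0.716 times that in WT (log2 fold change -0.48, SE 0.12, adjusted p = 0.0211 from limma). It was the 1 called gene of the 3 in this comparison, in which 5.16% of all probe sets were called. The call was lost without WT MV replicate 1, the highest array (-0.36, adjusted p = 0.112 from limma), without *pad2-1* MV replicate 1 (-0.44, 0.067) and without *pad2-1* MV replicate 2 (-0.49, 0.0609).

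In the control condition *OPCL1* read 6.96, 7.28 and 7.17 in WT and 6.96, 7.23 and 6.77 in *pad2-1*, and the groups overlapped (log2 fold change -0.15, interval -0.40 to 0.10, adjusted p = 0.591 from limma). Under P-lim the WT arrays read 7.36, 7.41 and 7.61 and the *pad2-1* arrays 7.15, 7.29 and 7.08. Here the groups lay apart by 0.06, but the difference of -0.28 (interval -0.53 to -0.03, unadjusted p = 0.0276) did not pass the adjustment (0.214 in limma). Averaged over the 3 conditions, *OPCL1* was lower in *pad2-1* by a log2 fold change of -0.30 (SE 0.07, adjusted p = 0.00478 from limma), a call kept under every alternative run. *OPCL1* and *ACX1* were the 2 of the 3 genes called for this average, in opposite directions, and 13.4% of all probe sets were called.

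*ACX1*, the oxidase of the first step of beta-oxidation, was higher in *pad2-1* than in WT without stress. Its control arrays read 8.63, 8.70 and 8.74 in WT and 9.10, 9.25 and 8.98 in *pad2-1*. All 3 *pad2-1* arrays were above all 3 WT arrays, with a gap of 0.24. The difference was 1.34-fold (interval 1.23 to 1.46; log2 fold change 0.42, SE 0.06, adjusted p = 0.000136 from limma). *ACX1* was the 1 called gene of the 3 in this comparison, in which 6.35% of all probe sets were called.

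Under P-lim *ACX1* was again higher in the mutant. The WT arrays read 8.89, 8.97 and 8.92 and the *pad2-1* arrays 9.20, 9.24 and 9.27. The groups were apart by 0.23, and the *pad2-1* level was 1.24-fold that of WT (interval 1.14 to 1.35; log2 fold change 0.31, adjusted p = 0.0033 from limma). *ACX1* was also the 1 called gene of the 3 here, against 5.31% of all probe sets. Both of these calls, and that for the mean of the 3 conditions (0.25, SE 0.03, adjusted p = 3.97e-05), were kept under every alternative run.

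Under MV no difference between the genotypes was called for *ACX1*. The WT arrays read 8.84, 8.80 and 8.83 and the *pad2-1* arrays 8.86, 8.85 and 8.85. The lowest *pad2-1* array stood above the highest WT array by 0.02 only, and the log2 fold change was 0.03 (interval -0.09 to 0.15, adjusted p = 0.852 from limma). The interval leaves out differences of the size measured in the control condition.

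*JMT*, the enzyme that makes methyl jasmonate, was at 3.87, 3.78 and 3.89 in the WT control arrays, where the lower quartile of all probe sets lies between 3.80 and 3.91 on the arrays. It was thus near the low end of the array in that group, and a level below it could hardly be measured. In *pad2-1* control it read 3.85, 4.14 and 3.895, which overlapped WT (log2 fold change 0.11, interval -0.16 to 0.39, adjusted p = 0.745 from limma). Under P-lim it read 4.27, 3.84 and 4.05 in WT and 4.25, 4.22 and 4.004 in *pad2-1*, again with overlap (0.11, interval -0.17 to 0.38, adjusted p = 0.764 from limma).

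Under MV the *JMT* arrays read 4.64, 5.13 and 4.81 in WT and 4.60, 4.52 and 4.18 in *pad2-1*. The groups did not overlap, but the nearest arrays were only 0.04 apart. The log2 fold change of -0.42 (interval -0.69 to -0.15, unadjusted p = 0.00485) did not pass the adjustment (0.0727 in limma). It passed with trend and robust estimation of the variance (adjusted p = 0.0473) and without WT MV replicate 1 (-0.53, adjusted p = 0.0406 from limma). Over the 3 conditions the mean difference was -0.07 (interval -0.22 to 0.09, adjusted p = 0.659 from limma).

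The plot of the comparisons sets these differences beside the responses to stress. MV raised *JMT* in both genotypes. In WT the rise was 2.01-fold (log2 fold change 1.01, SE 0.13, adjusted p = 3.17e-05 from limma), with all MV arrays above all control arrays, and the call was kept under every alternative that gave a value. The WT control arrays lay near the low end of the array, where RMA compresses differences, so this fold may be understated. The *pad2-1* control arrays (3.85, 4.14 and 3.895) also lay near it. Whether the difference between the genotypes in this response is understated or overstated is therefore not known. In *pad2-1* the rise was 1.39-fold (0.48, SE 0.13, adjusted p = 0.0301 from limma). The difference between the 2 responses was -0.54 (interval -0.92 to -0.15, unadjusted p = 0.0097), which did not pass the adjustment (0.197 in limma). The *pad2-1* call was lost in the fit of the compared arrays alone (adjusted p = 0.0606) and without any 1 of 4 *pad2-1* arrays, namely replicates 1 and 3 of the control and replicates 1 and 2 of MV (0.39 to 0.44, adjusted p = 0.0874 to 0.125 from limma).

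**Figure D2:**
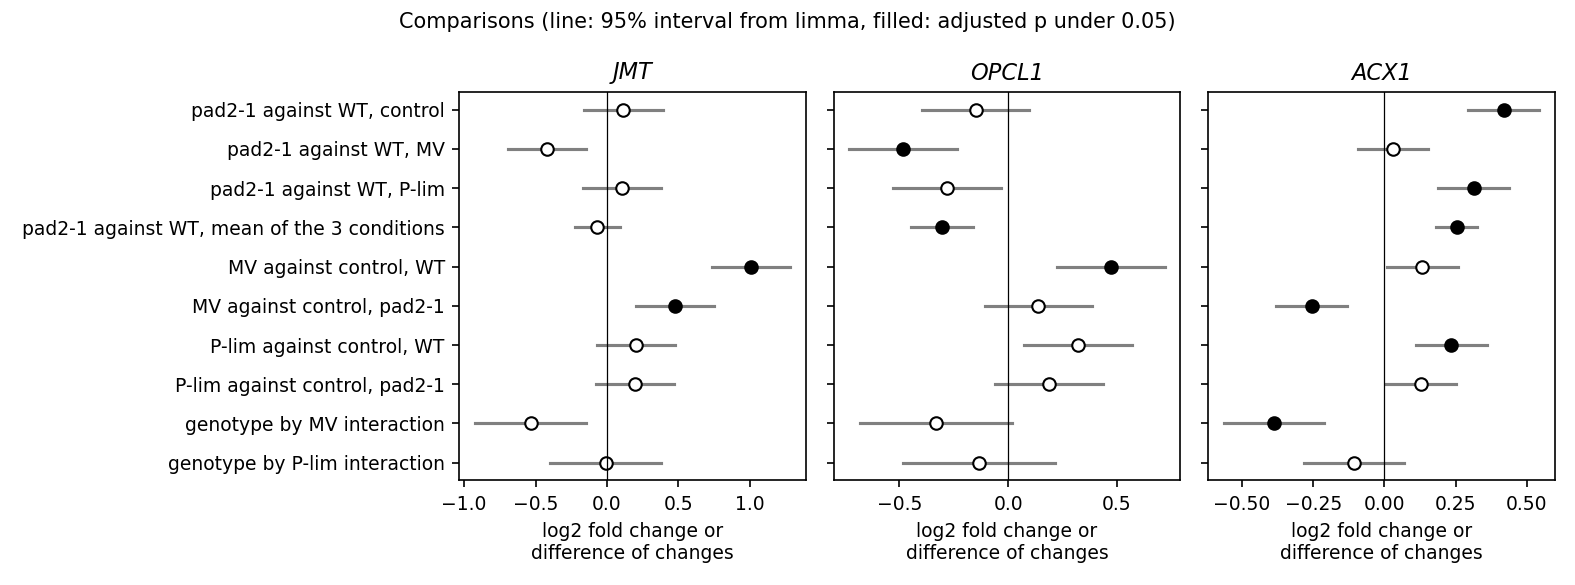
Differences of log2 expression for *JMT*, *OPCL1* and *ACX1* in the 10 comparisons, where points are limma estimates, lines are 95% intervals and filled points have an adjusted p under 0.05; each panel has its own axis. Between genotypes, filled points are on the right of 0 for *ACX1* in the control and P-lim conditions and for the mean over conditions. They are on the left of 0 for *OPCL1* under MV and for that mean. For MV against control, *JMT* in both genotypes and *OPCL1* in WT are filled on the right, and *ACX1* in the mutant on the left. For *ACX1*, P-lim against control in WT is filled on the right, and the genotype by MV interaction on the left.

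*OPCL1* rose under MV in WT, by 0.47 (SE 0.12, adjusted p = 0.0109 from limma), with the MV arrays above the control arrays by a gap of 0.14. This call was lost without WT control replicate 1 (0.38, adjusted p = 0.0679 from limma) and without WT MV replicate 1 (0.35, 0.0697). *JMT* and *OPCL1* were 2 of the 3 genes called in WT under MV, where 13.5% of all probe sets were called. In *pad2-1* the *OPCL1* difference was 0.14 (interval -0.11 to 0.39, adjusted p = 0.582 from limma). The responses of the genotypes differed by -0.33 (interval -0.68 to 0.02, adjusted p = 0.444 from limma), so a different response was not shown.

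*ACX1* fell under MV in *pad2-1*, where the control arrays had been high, from 9.11 ± 0.14 to 8.85 ± 0.005 (SD, n = 3; log2 fold change -0.26, SE 0.06, adjusted p = 0.00988 from limma). *JMT*, which rose, and *ACX1*, which fell, were 2 of the 3 genes called in *pad2-1* under MV, where 8.01% of all probe sets were called. In WT *ACX1* stood at 8.69 ± 0.05 in the control condition and 8.82 ± 0.02 under MV (SD, n = 3), a difference of 0.13 (unadjusted p = 0.0366) that did not pass the adjustment (0.164 in limma). The response of *ACX1* to MV differed between the genotypes by -0.39 (SE 0.08, interval -0.56 to -0.21, adjusted p = 0.0196 from limma). It was the 1 called gene of the 3 for this interaction, for which 1.65% of all probe sets were called. The fall, the interaction and the difference without stress share the *pad2-1* control arrays, of which replicate 2 was the highest of its group for all 3 genes. Without that array the interaction was -0.32 (adjusted p = 0.0513 from limma) and the fall -0.19 (0.0596), without WT control replicate 1 the interaction was -0.36 (0.0664), and with the compared arrays alone they had adjusted p of 0.0621 and 0.107.

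P-lim raised *ACX1* in WT, from 8.69 ± 0.05 to 8.93 ± 0.04 (SD, n = 3; log2 fold change 0.23, SE 0.06, adjusted p = 0.0152 from limma). It was the 1 called gene of the 3 in that comparison, against 9.21% of all probe sets. The call was lost without WT control replicate 1 (0.21, adjusted p = 0.0741 from limma) and without WT P-lim replicate 2 (0.21, 0.0617). *OPCL1* differed by 0.32 in WT under P-lim, with the arrays of the groups 0.08 apart, and did not pass (unadjusted p = 0.0141, adjusted p = 0.105 from limma). *JMT* differed by 0.21 (interval -0.07 to 0.48, adjusted p = 0.403 from limma).

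In *pad2-1*, limma called 0 of the 3 genes under P-lim, where 11.8% of all probe sets were called, and 1 of them, *ACX1*, had an unadjusted p under 0.05. Its difference was 0.13 (unadjusted p = 0.0429, adjusted p = 0.188 from limma), which passed without *pad2-1* control replicate 2 (0.20, adjusted p = 0.0304 from limma). The *OPCL1* and *JMT* differences were 0.19 (interval -0.06 to 0.43) and 0.20 (interval -0.08 to 0.47). For the genotype by P-lim interaction limma called 0 of the 3 genes, also at an unadjusted p under 0.05, against 0.725% of all probe sets at the adjusted p. Its values were -0.01 for *JMT* (interval -0.40 to 0.38), -0.13 for *OPCL1* (-0.48 to 0.22) and -0.11 for *ACX1* (-0.28 to 0.07).

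The order of the group means was read for each gene. For *JMT* it ran from WT MV (4.86 ± 0.25) through *pad2-1* MV (4.44 ± 0.22), *pad2-1* P-lim (4.16 ± 0.14), WT P-lim (4.05 ± 0.21) and *pad2-1* control (3.96 ± 0.15) to WT control (3.85 ± 0.06), with SD over 3 arrays. Of these neighbours only the first pair had arrays that did not overlap. For *OPCL1* it ran from WT MV (7.61 ± 0.22) and WT P-lim (7.46 ± 0.13) to *pad2-1* P-lim (7.17 ± 0.11), WT control (7.14 ± 0.16), *pad2-1* MV (7.13 ± 0.07) and *pad2-1* control (6.99 ± 0.23), and only WT P-lim and *pad2-1* P-lim had arrays apart. For *ACX1* it ran from *pad2-1* P-lim (9.24 ± 0.03) and *pad2-1* control (9.11 ± 0.14), which overlapped, to WT P-lim (8.93 ± 0.04), *pad2-1* MV (8.85 ± 0.005), WT MV (8.82 ± 0.02) and WT control (8.69 ± 0.05), whose neighbours did not overlap.

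The likeness of the 3 genes to each other was low to moderate. Over the 18 arrays, which share the 6 group conditions, *JMT* and *OPCL1* had a Pearson r of 0.49, *JMT* and *ACX1* one of -0.14, and *OPCL1* and *ACX1* one of -0.17. Over the 6 group means the same pairs had r of 0.65, -0.16 and -0.31. The named probe sets most like each gene over the 6 group means, among those above the median level whose group means span at least 0.5, were then listed. For *JMT* they were AT4G16447 (r = 0.97), AT4G28310 (0.97) and AT4G01390 (0.96). For *OPCL1* they were AT1G31550 (0.94), AT4G31330 (0.94) and *GSTU27* (AT3G43800, a tau class glutathione S-transferase, 0.94). For *ACX1* they were AT1G28600 (0.99), *SGP1* (AT5G54840, 0.99) and AT3G04000 (0.98). Over the 18 arrays these 9 probe sets had r with their gene between 0.63 and 0.95, and over the 6 group means 28 of 687 probe sets considered for *JMT*, 9 of 686 for *OPCL1* and 37 of 686 for *ACX1* had r above 0.9.

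Other genes of the JA pathway were read from lists of synthesis, conjugation and turnover, perception and response, in which 15 genes besides the 3 were measured under their own name out of 76 listed. In *pad2-1* against WT, 1 of the 15 was called higher and 0 lower in the control condition, 0 higher and 4 lower under MV, and 0 higher and 2 lower under P-lim. Of all probe sets, 3.66% were called higher and 2.69% lower in the control condition, 2.34% and 2.82% under MV, and 3.15% and 2.16% under P-lim. The median log2 fold change of the 15 was -0.02, -0.09 and -0.03 in these conditions, and that of all probe sets was between -0.02 and 0.00. The plot of the JA genes between genotypes gives every gene with its interval.

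**Figure D3:**
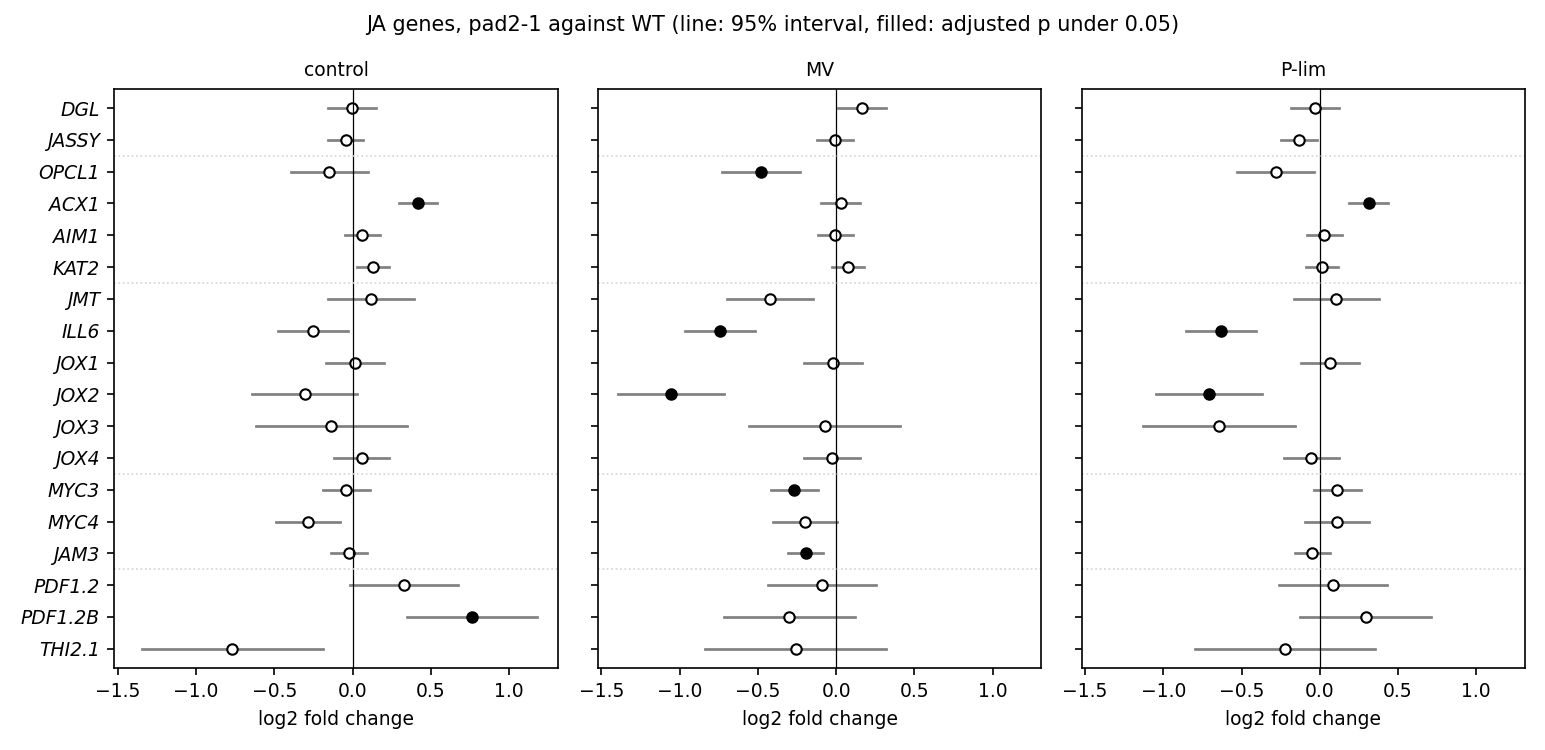
Log2 fold change of *pad2-1* against WT for the 18 measured JA genes in the control, MV and P-lim conditions, with limma 95% intervals as lines and filled points for an adjusted p under 0.05; dotted lines part synthesis in plastids, synthesis in peroxisomes, conjugation and turnover, perception, and response. *ILL6* and *JOX2* are filled on the left of 0 under MV and P-lim, and *ACX1* is filled on the right of 0 in the control and P-lim conditions.

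Among the genes of the peroxisome, the other measured enzymes of beta-oxidation, *AIM1* and *KAT2*, showed no call in any comparison. *AIM1*, a multifunctional protein of the middle steps, differed between *pad2-1* and WT by 0.06 (interval -0.05 to 0.17) in the control condition and by 0.03 (-0.08 to 0.14) under P-lim. *KAT2*, the thiolase of the last step, differed by 0.13 (0.03 to 0.23, adjusted p = 0.136 from limma) and by 0.02 (-0.09 to 0.12). For the mean of the 3 conditions *KAT2* was at 0.07 (adjusted p = 0.0938 from limma), and it passed without the dim probe sets (0.044), with trend and robust estimation (0.0486) and without WT MV replicate 2 (0.0248). Under the same 3 alternatives it also passed for P-lim against control in WT (0.14, adjusted p = 0.034 to 0.0455 from limma, with 0.0793 otherwise), and *AIM1* passed there without the dim probe sets (0.15, 0.0427). Between *pad2-1* and WT, *ACX1* differed by 0.42 in the control condition and by 0.31 under P-lim. *HPR1*, a peroxisomal enzyme of photorespiration, differed between them by 0.01 (interval -0.08 to 0.11) in the control condition and by -0.08 (-0.18 to 0.02) under P-lim. In plastids, where the precursor begins, the lipase gene *DGL* was not called in any comparison, but its group means of 2.98 to 3.17 lie below the lower quartile of every array, where a difference could hardly be measured. *JASSY*, which exports the precursor, was called lower under P-lim than in the control condition in *pad2-1* (-0.21, adjusted p = 0.0145 from limma). The *JASSY* call was lost without any 1 of *pad2-1* control replicate 3 and *pad2-1* P-lim replicates 2 and 3 (adjusted p = 0.0506 to 0.0529) and with the compared arrays alone (0.0549).

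Of the 6 measured genes of JA conjugation and turnover, *ILL6* and *JOX2* were lower in *pad2-1* than in WT under both MV and P-lim, and the other 4, *JMT* among them, were not called between genotypes. *ILL6*, an amidohydrolase that cleaves JA-amino acid conjugates, read 7.64, 7.66 and 7.52 in WT and 6.75, 6.83 and 7.004 in *pad2-1* under MV. The groups were far apart, and the log2 fold change was -0.75 (SE 0.11, adjusted p = 0.000238 from limma). Under P-lim it read 7.18, 7.27 and 7.24 in WT and 6.57, 6.76 and 6.47 in *pad2-1* (log2 fold change -0.63, adjusted p = 0.00125 from limma). In the control condition *ILL6* differed by -0.25 (interval -0.47 to -0.03, adjusted p = 0.216 from limma) with overlapping arrays.

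*JOX2*, an oxygenase that hydroxylates JA, read 6.39, 6.13 and 6.34 in WT and 5.24, 5.23 and 5.22 in *pad2-1* under MV, and the groups did not overlap. This difference of -1.06 (SE 0.16, adjusted p = 0.000435 from limma) was the largest in size among the 18 JA genes under MV. Under P-lim *JOX2* read 5.85, 5.50 and 5.77 in WT and 4.64, 5.49 and 4.87 in *pad2-1*, with the nearest arrays almost equal (-0.71, adjusted p = 0.0132 from limma). That call was lost with the compared arrays alone (0.0785) and without replicate 1 or 3 of either genotype under P-lim (0.0594 to 0.0641). In the control condition the difference was -0.31 (interval -0.65 to 0.03, adjusted p = 0.349 from limma). The related oxygenases *JOX1*, *JOX3* and *JOX4* were called in no comparison, and *JOX1* lay below the lower quartile of the arrays in every group (means 3.12 to 3.22), where a difference could hardly be measured. The *JOX4* group means of 3.85 to 4.01 lay near that quartile. For P-lim against control in WT, *JOX4* (0.15, adjusted p = 0.324 from limma) passed without WT P-lim replicate 2 (0.28, 0.0163). *JOX3* read 4.90, 3.64 and 3.46 in WT and 3.26, 3.34 and 3.48 in *pad2-1* under P-lim, so that 1 WT array stood high (log2 fold change -0.64, interval -1.13 to -0.16, adjusted p = 0.129 from limma). With single arrays left out this difference ran from -0.91, without WT P-lim replicate 3 (adjusted p = 0.0289 from limma), to -0.20, without WT P-lim replicate 1. For P-lim against control in WT, *JOX3* (0.62, adjusted p = 0.1115 from limma) passed without WT P-lim replicate 3 (0.89, 0.0196). Single arrays left out gave 0.17 to 0.89 there. In every group but WT P-lim the mean of *JOX3* (3.25 to 3.39) also lay below the lower quartile of the arrays.

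Of the perception genes, *MYC3*, a transcription factor of the JA response, was lower in *pad2-1* under MV by -0.27 (adjusted p = 0.0339 from limma), and *JAM3*, a factor that represses JA responses, by -0.19 (0.0402). The *MYC3* call was lost without any 1 of the 3 WT MV arrays and *pad2-1* MV replicates 1 and 2 (0.058 to 0.148) and with the compared arrays alone (0.0747). The *JAM3* call was lost under 12 of 23 alternatives, among them any 1 of WT MV replicates 1 and 2 and *pad2-1* MV replicates 2 and 3 left out (0.0881 to 0.174). The other measured perception gene, *MYC4*, was not called between genotypes. It differed by -0.28 in the control condition (adjusted p = 0.104 from limma), -0.20 under MV (0.276) and 0.11 under P-lim (0.654). The control difference passed with the compared arrays alone (0.0256) and without WT MV replicate 3 (0.0476). *PDF1.2B*, a defensin gene whose probe set may also match related defensins, was called higher in *pad2-1* control (0.76, adjusted p = 0.0257 from limma). Its *pad2-1* control arrays read 6.33, 5.66 and 5.26 against 5.03, 5.00 and 4.93 in WT. Replicate 1 was the highest array of *PDF1.2B* in each of the 6 groups. The call was lost without any 1 of the 3 WT control arrays and *pad2-1* control replicates 1 and 2 (0.0564 to 0.113). It was also lost with the compared arrays alone (0.0974) and with trend and robust estimation (0.0671). The JA-responsive *PDF1.2* and *THI2.1* were called in no comparison. In *pad2-1* control against WT control, *PDF1.2* differed by 0.33 (adjusted p = 0.318 from limma) and *THI2.1* by -0.77 (0.123). The *THI2.1* arrays lay apart by 0.27 there. The mean of *THI2.1* was 3.86 ± 0.33 in *pad2-1* control and 3.77 ± 0.66 in *pad2-1* P-lim (SD, n = 3). Both lay near the lower quartile of the arrays (3.80 to 3.91), where a difference could hardly be measured. The mean difference of *THI2.1* over the 3 conditions, -0.42 (0.0982), passed with the replicate block (0.0454) and without *pad2-1* P-lim replicate 3 (-0.53, 0.0143). *BSMT1*, a methyltransferase related to *JMT*, was not called either, and its group means of 2.88 to 3.13 also lie below the lower quartile of every array.

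In the response to MV, 5 of the 15 other JA genes were called higher and 0 lower in WT, and 2 higher and 0 lower in *pad2-1*. Of all probe sets, 7.98% were called higher and 5.56% lower in WT, and 4.16% and 3.85% in *pad2-1*. Their median log2 fold change was 0.13 in WT, where that of all probe sets was 0.02, and 0.05 in *pad2-1*. In WT these were *ILL6* (0.53, adjusted p = 0.00212 from limma), *JOX2* (1.32, 1.66e-05), *MYC3* (0.25, 0.0257), *JAM3* (0.28, 0.0016) and *MYC4*, a relative of *MYC3* (0.44, 0.00479). In *pad2-1* they were *JOX2* (0.57, adjusted p = 0.0329 from limma) and *MYC4* (0.52, 0.00198). The *JOX2* call in *pad2-1* was lost without any 1 of the *pad2-1* control and MV arrays (0.0509 to 0.129), and the *MYC3* call in WT without any 1 of 4 WT arrays, namely replicates 1 and 2 of the control and replicates 2 and 3 of MV (0.0596 to 0.149). That *MYC3* call was also lost with the compared arrays alone (0.0587) and with arrays shifted to the same median (0.0515).

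**Figure D4:**
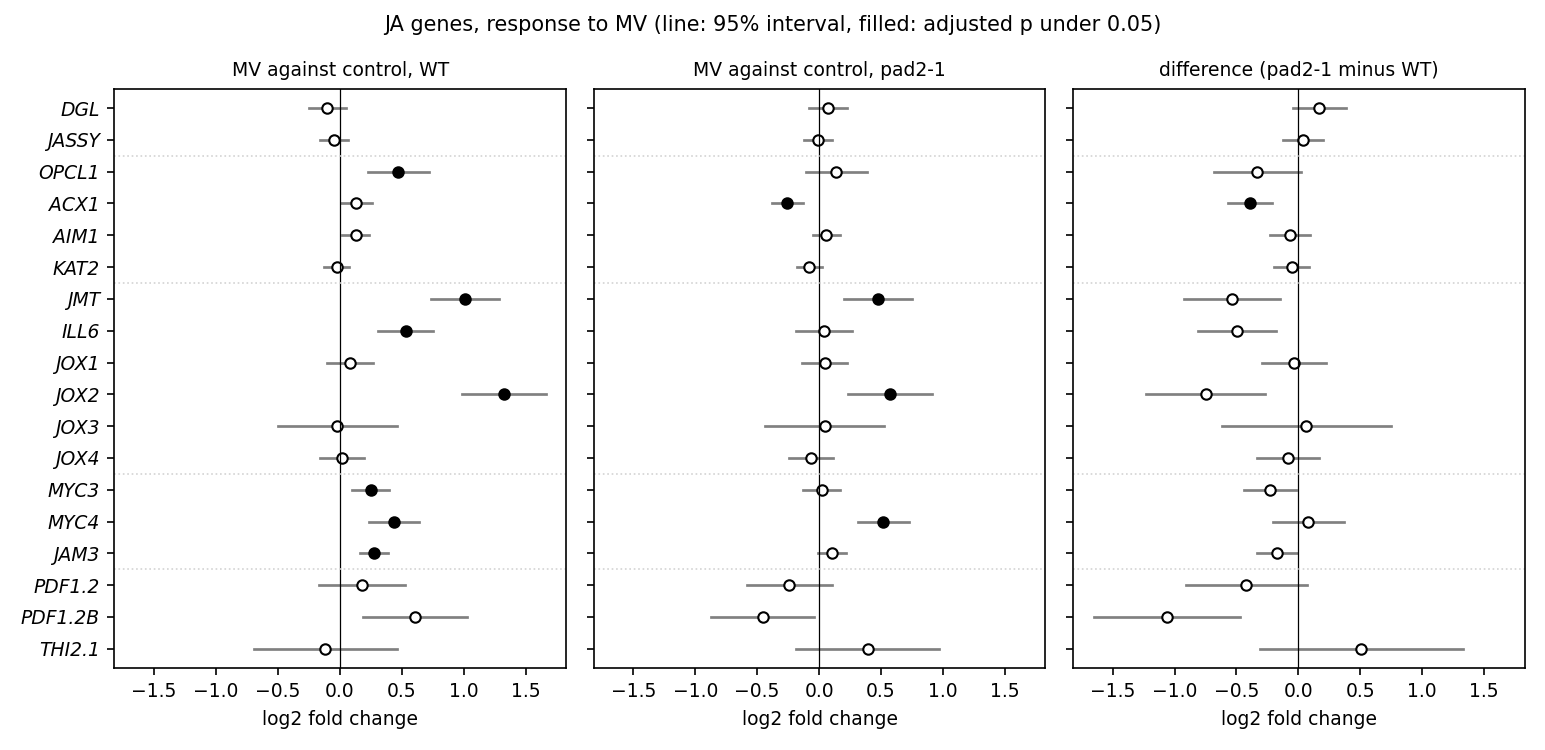
Log2 fold change under MV against control for the 18 measured JA genes in WT and *pad2-1*, and the difference of these changes, with limma 95% intervals as lines and filled points for an adjusted p under 0.05. In WT 7 genes are filled on the right of 0, and in the panel of the differences the filled gene is *ACX1*.

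The difference between the genotypes in the response to MV was called by limma for 0 of the 15, with 0 higher and 5 lower at an unadjusted p under 0.05, where 4.89% of all probe sets were higher and 7.4% lower. For *ILL6* it was -0.49 (adjusted p = 0.129 from limma), for *JOX2* -0.75 (0.128) and for *PDF1.2B* -1.06 (0.0692). *JOX2* passed with the compared arrays alone (adjusted p = 0.0237) and without *pad2-1* P-lim replicate 2 (0.0223), *ILL6* passed without WT control replicate 2 (-0.61, 0.0444), and *PDF1.2B* passed without *pad2-1* control replicate 3 (-1.31, 0.00701) and without WT MV replicate 3 (-1.24, 0.0329). Under P-lim 1 of the 15 was called in WT, where 9.21% of all probe sets were, and it was *JOX2* (0.74, adjusted p = 0.00523 from limma). In *pad2-1* under P-lim 2 of the 15 were called, where 11.8% of all probe sets were, with *MYC4* higher (0.41, adjusted p = 0.00879 from limma) and *JASSY* lower. These counts are near the shares of all probe sets. The *MYC4* call was lost without *pad2-1* P-lim replicate 2 (0.0542). The genotype by P-lim interaction was called by limma for 0 of the 15 (0.725% of all probe sets), with 1 higher and 1 lower at an unadjusted p under 0.05, where 5.62% of all probe sets were higher and 4.44% lower.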

How the data were processed

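The authors normalized the 18 ATH1 arrays together with RMA (the submitters' processing notes name no version) and deposited log2 values, 1 for each array and probe set, with no counts or depth. RMA gives the arrays like distributions, so that a shift shared by most transcripts cannot be seen, and it compresses values near the background. The deposited log2 values were used without further scaling. Samples were grouped by title, since some descriptions of stressed WT samples name unstressed medium, and the labels gave no batch. Replicates are described as biological, and the number of arrays limits the precision.

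The manufacturer's 64 control probe sets were left out of 22810, and 22746 were tested. Of these, 13631 had 1 gene (13513 from the probe annotation and 118 from the 384 lines read of a supplementary table), 508 several and 8607 none. Genes with no probe set named by them alone, *GSH1* among them, were not analysed here. limma (version 3.58.1, R 4.3.3) fitted 6 group means with a moderated variance and gave 10 comparisons, 2 of them interactions, with Benjamini-Hochberg adjustment. The steps were tested on simulated data.

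The 3 genes, the lists and the tests were chosen with earlier results of these data known. Named are the 3 genes, listed genes that passed between genotypes with up to 4 others a list, and the 3 named probe sets most like each gene. The alternatives were the compared arrays alone, the dimmer 50% of the probe sets dropped, arrays shifted to the same median, trend and robust estimation, a replicate block, each array left out, and, for counts, a minimum log2 fold of 1.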

Additional observations from a re-analysis of the deposited data

Results flagged for a closer look

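The response of *ACX1* to MV differed between the genotypes by the test of the difference itself: the log2 change under MV in *pad2-1* minus that in WT was -0.39 (SE 0.08, adjusted p = 0.0196 from limma, n = 3 arrays a group). The change was -0.26 in *pad2-1* and 0.13 in WT, of which only the former was called. All 3 MV arrays of *pad2-1* were below the 3 control arrays, and all 3 MV arrays of WT were above the 3 control arrays. Without *pad2-1* control replicate 2 the difference was -0.32 (adjusted p = 0.0513 from limma), and without WT control replicate 1 it was -0.36 (0.0664).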

How the results depend on the processing

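Of the alternatives for the 3 genes, 657 values kept their side of the threshold, 17 lost the call and 3 gained it. No called value changed its direction, and the uncalled *JMT* interaction with P-lim (-0.01) changed its sign under 4 alternatives, each with 1 array left out (range over all alternatives -0.11 to 0.10). With the compared arrays alone, *JMT* (MV, *pad2-1*) was at 0.48 (adjusted p = 0.0606 from limma), *ACX1* (MV, *pad2-1*) at -0.26 (0.107) and the *ACX1* interaction with MV at -0.39 (0.0621), while *JMT* (genotypes, MV) passed with trend and robust estimation at -0.42 (0.0473). With single arrays left out, *JMT* (genotypes, MV) ranged from -0.53 to -0.29, *OPCL1* (genotypes, MV) from -0.57 to -0.36, *OPCL1* (MV, WT) from 0.35 to 0.56, *JMT* (MV, *pad2-1*) from 0.39 to 0.60, *ACX1* (MV, *pad2-1*) from -0.32 to -0.19, *ACX1* (P-lim, WT) from 0.21 to 0.26, *ACX1* (P-lim, *pad2-1*) from 0.0619 to 0.20 and the *ACX1* interaction with MV from -0.46 to -0.32. The cause of these changes was not tested. Fits of the compared arrays alone or with an array left out hold fewer arrays, whereas trend and robust estimation used all of them.

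Counts of called probe sets moved with the compared arrays alone from 1174 to 678 (genotypes, MV), from 1821 to 1031 (MV, *pad2-1*) and from 2687 to 1714 (P-lim, *pad2-1*). With a minimum log2 fold of 1, between genotypes 1444 became 140 (control), 1174 became 86 (MV), 1207 became 79 (P-lim) and 3047 became 82 (mean), under MV 3080 became 168 (WT) and 1821 became 116 (*pad2-1*), under P-lim 2094 became 164 (WT) and 2687 became 205 (*pad2-1*), and the interactions went from 376 to 89 (MV) and from 165 to 57 (P-lim). With single arrays left out, the counts were 945 to 1513 (genotypes, control), 732 to 1237 (genotypes, MV), 690 to 1266 (genotypes, P-lim), 1173 to 1910 (MV, *pad2-1*), 240 to 444 (MV interaction) and 90 to 237 (P-lim interaction).

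Of the 18 JA genes, the called went from 5 to 3 (genotypes, MV), from 4 to 2 (MV, *pad2-1*) and from 2 to 1 (P-lim, *pad2-1*) with the compared arrays alone, from 2 to 1 (genotypes, control) and from 4 to 2 (MV, *pad2-1*) without dim probe sets, and from 2 to 1 (genotypes, control) with trend and robust estimation. Single arrays left out gave 1 to 3 (genotypes, control), 2 to 5 (genotypes, MV), 2 to 4 (MV, *pad2-1*), 1 to 3 (P-lim, WT), 0 to 4 (P-lim, *pad2-1*) and 0 to 2 (MV interaction).

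Same-numbered arrays of different groups had correlated deviations of -0.18 to 0.11, with 1 of 21 pairs above 0.1. Whether same-numbered arrays share a batch cannot be told from these values. For *PDF1.2* and *PDF1.2B*, replicate 1 was the highest array in each of the 6 groups, and the cause was not tested. The replicate block changed no call of the 3 genes (*OPCL1* between genotypes under MV -0.48, adjusted p = 0.0269; *ACX1* interaction with MV -0.39, 0.03, both from limma). With the replicate block 2 JA genes passed the MV interaction in place of 1, the added one being *PDF1.2B* (adjusted p = 0.00964 from limma). *PDF1.2B* then also passed for MV against control in WT (0.61, adjusted p = 0.00729 from limma, with 0.0515 otherwise). It passed for the genotype mean over the 3 conditions as well (0.25, 0.0467, with 0.176 otherwise). *JAM3* lost its call between genotypes under MV with the block (0.0649). Without the dim probe sets *JMT* has no value.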
